A study of Mus musculus with 8 samples.

Results

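The RNA helicases of the DEAD-box and DEAH-box families were examined in activated mouse B cells that lack EIF4A1, itself a DEAD-box helicase. The members are the genes whose names begin with Ddx or Dhx followed by a number, without Ddx3y and without pseudogenes, which gave 53 of the 53242 genes in the tables, 36 Ddx and 17 Dhx genes. The control mice were Eif4a1 +/+ CD23-cre and the 4A1 KO mice carried Eif4a1 fl/fl with the same transgene, all on C57BL/6 and aged 8 to 12 weeks. Their splenic B cells spent 24 h on irradiated CD40LB feeder cells, which present CD40 ligand, in medium with IL4 (40 ng/ml) before RNA was sequenced from 4 mice per genotype. Both genotypes carried the Cre transgene, which is driven by the CD23 (Fcer2a) promoter and acts from splenic immature B cells on, and exons 2 to 4 of Eif4a1 were flanked by loxP sites. Batch A held replicate 1 (male) and replicate 2 (female) of each genotype, and batch B held replicate 3 (male) and replicate 4 (female). Replicate 1 of both genotypes was left out of the main comparison because the study removed it for low viability, so that n = 3 per genotype unless 4 are named.

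RNA helicases of these families bind RNA and use ATP to unwind short duplexes or to strip proteins from RNA. Most work in large assemblies: the nucleolar particles that build ribosomes, the spliceosome, the export machinery at the nuclear pore, the translation initiation complex and the granules in which mRNA is repressed or decayed. A few detect viral RNA and start the interferon response. The DEAD and DEAH names refer to motif II of the helicase core, the amino acids aspartate, glutamate, alanine and aspartate (or histidine), which hold the magnesium and water used in ATP hydrolysis.

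The codons of this motif are shown for the members on which the results turn, since they show what unites the family and how the subfamilies differ. Each line gives 30 coding bases of the GENCODE M39 transcript, 5′ to 3′ on the gene's own strand, with the 12 bases of the 4 motif codons in capitals. All of them are in coding exons of GRCm39, and those of Ddx6 and Ddx60 run across an exon junction.
Ddx19b: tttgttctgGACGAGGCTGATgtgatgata
Ddx19a: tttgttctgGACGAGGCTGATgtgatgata
Ddx55: ctggtgctgGACGAGGCAGACagactgctc
Ddx6: atagtgctaGATGAGGCAGATaaattgttg
Ddx5: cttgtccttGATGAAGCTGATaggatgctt
Eif4a1: ttcgtactgGATGAAGCAGATgaaatgtta
Eif4a2: ttcgttttgGACGAAGCAGATgaaatgttg
Dhx40: attattttgGATGAAGCCCATgaaagaact
Ddx39b: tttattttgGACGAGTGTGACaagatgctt
Ddx39a: tttgtgctaGATGAATGTGACaagatgctg
Ddx21: gttgtcctgGATGAAGTCGACcagatgttg
Ddx50: gttgtgcttGATGAAGTAGATcaaatgtta
Ddx60: gttatatttGATGAGGTCCATtgccttggt
The Ddx19b and Ddx19a windows, in exon 8 of each gene at chr8:111737958-111737987 and chr8:111705709-111705738 on the minus strand, are identical in every base. Those of Eif4a1, in exon 6 at chr11:69559530-69559559 on the minus strand, and of Eif4a2, in exon 6 at chr16:22929004-22929033 on the plus strand, encode the same motif and differ in the first of its 4 codons. Among the 53 members the search found the DEAD box in 25 and the DEAH box in 8. It found the DEVH form in 5, among them Ddx60 and Dhx29, DECD in the export factors Ddx39a and Ddx39b, DEVD in the nucleolar pair Ddx21 and Ddx50, DEIH in Dhx9 and Dhx36, and DESD in Ddx52. In 7 genes the search returned no box, which says only that these codons were not found at the searched spacing, and 1 member, the antisense RNA Dhx58os, has no coding sequence. Of the tested genes with the DEAD box, 15 of 23 passed an adjusted p of 0.05 between the genotypes, and 7 of 8 with the DEAH box did, where 53.0% of all genes tested passed. The median log2 fold changes were 0.09 and 0.02.

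The 8 libraries held between 31727557 and 43210858 counts, the 6 compared ones at least 38488341. Eif4a1 fell by 0.44 on the log2 scale (SE 0.05, adjusted p = 1.15e-04), from 856 ± 98.1 to 629 ± 67.4 CPM (counts scaled to library size; mean ± SD), and the counts are summed over the whole gene, so that they do not report the floxed exons alone. The summed level of 8 B cell markers was 6645 to 7773 CPM in control and 7021 to 7450 CPM in 4A1 KO libraries, with 4 of the 8 called lower and none higher and a median log2 fold change of −0.45. Among markers of other cells, the summed T cell level was 14.5 to 24.5 CPM in control and 10.4 to 19.5 CPM in 4A1 KO, with Cd3g, Cd247 and Trbc2 at 0. The summed myeloid level was 8.68 to 14.7 and 14.2 to 16.4 CPM, with S100a8 and S100a9 at 0 and 1 of 8 markers called higher in 4A1 KO. That of fibroblasts, the kind of cell the feeder is, was 11.1 to 53.3 and 17.4 to 31.5 CPM over 12 markers, of which Timp3 and Lum were at 0, 1 was called higher and 1 lower.

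Helicase mRNAs were abundant in activated control B cells. On the per-length TPM scale (transcript abundance corrected for length), the median of the 53 members was 68.6, and 21 members had a mean of at least 100 TPM, 24 lay between 10 and 100, 3 between 1 and 10 and 5 under 1. The 5 most abundant made up 43.0% of the family's TPM. Ddx5, a coactivator of transcription and a splicing factor, was highest at 914 ± 27.7 TPM. It was followed by the export helicase Ddx39b at 574 ± 32.7, the nucleolar helicase Ddx21 at 563 ± 21.7, the export helicase Ddx39a at 427 ± 4.00 and Ddx3x, which helps ribosomes through structured 5′ leaders, at 383 ± 25.7 TPM. The ranges of Ddx39b and Ddx21 overlapped, as did those of Ddx3x and Dhx15 and those of Dhx15 and Dhx9, whereas Ddx5, Ddx21 and Ddx39a each stood clear of the next gene. Eif4a1 itself was at 1070.2 ± 119 TPM in control cells. At the bottom, besides Ddx60 and Dhx58os, were the germline helicases: Ddx4, with 2 to 10 counts per library, Ddx43, with 0 to 3, and Ddx25, the only one of the 3 with enough reads to test.

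The order of the levels was largely kept without EIF4A1. Ddx5 remained highest at 1066 ± 51.0 TPM, Ddx21 at 663 ± 30.4 moved ahead of Ddx39b at 506 ± 19.4, and Dhx15 ahead of Ddx39a. The family's summed TPM was 6357, 6429, 6680 and 6850 in control replicates 1 to 4 and 6416, 6504, 6891 and 6788 in 4A1 KO, and these ranges overlap. The summed CPM ran from 11496 to 11822 in control and from 11797 to 12315 in 4A1 KO, a difference that the exact permutation test of 4 against 4 libraries (two-sided) put at p = 0.0571, where the smallest possible p is 0.0286. That test does not use the pairing by sex and batch, and in 4 of 4 pairs the 4A1 KO library was the higher in CPM. An exact test within 4 pairs cannot go below p = 0.125.

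**Figure D1:**
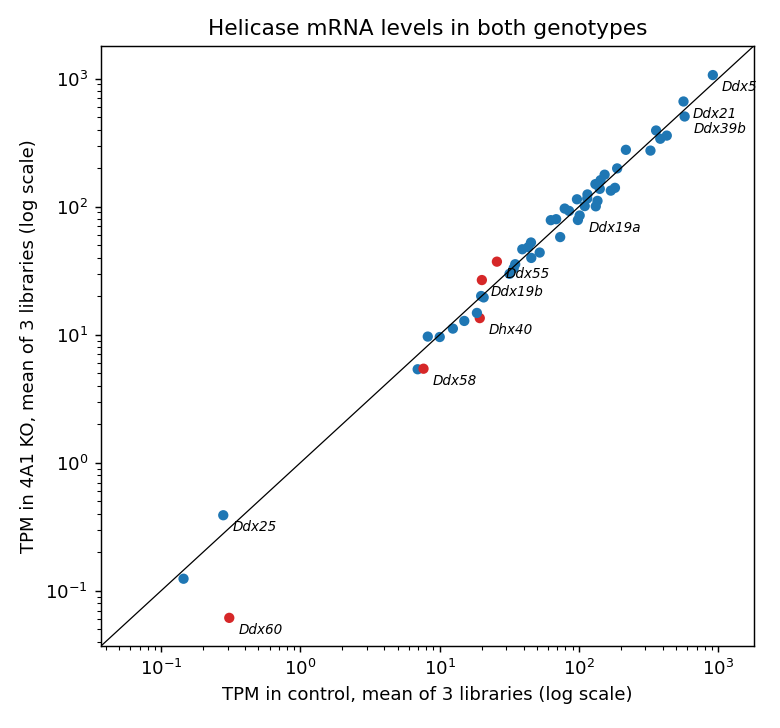
Mean TPM of each helicase gene in control (x axis) and 4A1 KO B cells (y axis), 3 libraries each, on log scales, with the line of equal level and the genes called between genotypes in red; genes with a mean of 0 in a genotype are not drawn. Levels span from under 1 TPM to 1066 TPM for Ddx5, and the called genes all lie under 26 TPM in control.

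For the comparison of the genotypes, 50 of the 53 members had enough reads and were fitted with all 14218 genes tested, in edgeR's quasi-likelihood test with batch, sex and genotype and Benjamini-Hochberg adjustment. A gene is written to have risen or fallen where its adjusted p was under 0.05, and is called where its log2 fold change was also beyond 0.5 in either direction. Of the 50 helicases, 35 passed the adjusted p, 17 higher and 18 lower in 4A1 KO. Of all genes tested 53.0% did, 26.3% higher and 26.7% lower. Without batch and sex, which here are the replicate block, 22 of the 50 passed. Only 5 (10.0%) were called, 2 higher and 3 lower, against 25.3% of all genes tested. Among the 8386 genes that averaged 10 CPM or more, 64.0% passed the adjusted p and 20.7% were called, and among the 46 helicases there 34 passed and 4 were called. The median log2 fold change was −0.05, that of all genes 0.01, and the median size of the change, regardless of sign, was 0.23 against 0.31 in all genes and 0.25 in all genes of at least 10 CPM.

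In the same-numbered pairs, 44 of the 50 members differed in the direction of the fit in all 3, as did 73.5% of all genes tested. These are the pairs that the fit used. In replicate 1, which it did not use, the 4A1 KO library lay on the same side of its control for all 35 members that passed the adjusted p, and for 96.7% of all genes that passed. When replicate 2, 3 or 4 was left out, 23 of the 35 passed in each fit and 12 did not. Without replicate 2, Dhx33, Ddx46, Ddx23, Dhx15, Dhx37, Ddx49, Dhx38, Dhx30 and Ddx3x did not pass, with adjusted p between 0.0691 and 0.165. Without replicate 3 this held for Dhx33, Ddx46, Ddx39b, Ddx11, Dhx15, Dhx37, Ddx28, Dhx38 and Dhx30, between 0.0514 and 0.232, and without replicate 4 for Dhx30 (0.0714). The 30 members that passed the adjusted p without being called lay between −0.38 and 0.34, and 44 of the 50 lay within 0.4 of no change. None of the 21 most abundant members was called, although 16 of them passed the adjusted p. Of all genes that averaged 10 CPM or more, 20.7% were called and 64.0% passed, and no share was computed for genes as abundant as these. Over all 8 libraries, the genotypes did not overlap for 24 of the 50 (48.0%), where this held for 36.9% of all genes tested. The share among genes of similar level was not computed.

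**Figure D2:**
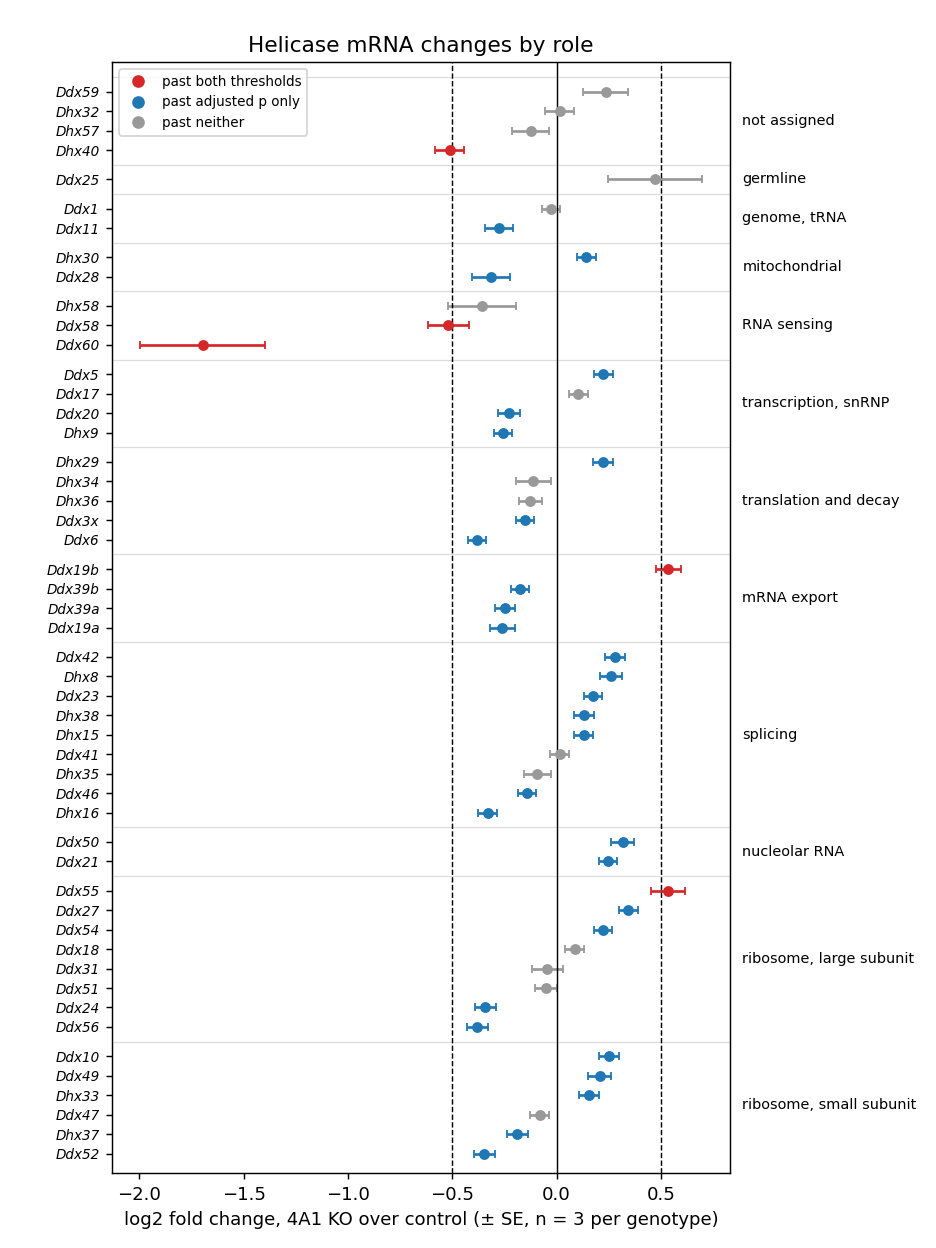
Log2 fold change of the 50 tested helicase genes, 4A1 KO over control, grouped by role; points are edgeR estimates and bars their standard errors (n = 3 per genotype), and dashed lines mark 0.5 in each direction. Genes past both thresholds are red (5), those past the adjusted p alone blue (30) and the rest grey (15), and most roles hold members on both sides of 0.

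The largest change in the family was in the helicases of RNA sensing. Ddx60, an interferon-induced antiviral factor, and Ddx58 (RIG-I), which detects viral RNA with 5′ triphosphates, were called lower in 4A1 KO cells, 2 of the 3 members tested, and the list's median log2 fold change was −0.52. Of all genes tested 13.7% were called lower. Ddx60 was barely detected, with 31, 54, 34 and 34 counts in control replicates 1 to 4 and 4, 13, 9 and 14 counts in 4A1 KO. These are 0.774, 1.34, 0.818 and 0.780 CPM in control and 0.127, 0.337, 0.222 and 0.327 CPM in 4A1 KO. All 4 4A1 KO libraries were lower than all 4 control libraries, and control replicate 2 was well above its group. The log2 fold change was −1.70 (SE 0.30, adjusted p = 0.00141), a fall of 69.1%, and −1.53 (adjusted p = 0.0173) without replicate 2. With DESeq2's normal shrinkage it was −0.65 (adjusted p = 0.0130), and the gene was left out by a filter at a mean of 1 CPM. The fibroblast marker sum was also highest in control replicate 2, at 53.3 CPM, and the part of feeder RNA in the Ddx60 level was not tested. The feeder cells had been depleted with beads before RNA was isolated. In bulk RNA such as this, fewer cells that express a gene and less of its RNA per cell cannot be told apart.

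Ddx58 stood at 14.2, 18.2, 11.8 and 13.7 CPM in control replicates 1 to 4 and at 9.33, 11.1, 9.02 and 9.97 CPM in 4A1 KO. The lowest control library was above the highest 4A1 KO library by less than 1 CPM. The log2 fold change was −0.52 (SE 0.10, adjusted p = 0.00202), which passed the fold threshold by a narrow margin and fell short of it at −0.43 without replicate 2. Dhx58 (LGP2), the regulator of RIG-I-like receptors, did not pass the test at −0.36 (SE 0.16, adjusted p = 0.0970), and it ranged from −0.09 (adjusted p = 0.632) without replicate 2 to −0.51 (adjusted p = 0.0183), which passed, without replicate 4. Its values were 7.72, 11.3, 6.06 and 5.74 CPM in control and 5.98, 6.23, 5.52 and 5.58 CPM in 4A1 KO, with overlapping ranges. Ifih1 (MDA5), the other RIG-I-like receptor, named after its values were seen, was at 0.35 (adjusted p = 0.0612) and likewise did not pass. The antisense gene Dhx58os, which overlaps Dhx58, had 0 counts in all 8 libraries and 0 to 0.243 TPM.

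The 4 helicases of mRNA export passed the adjusted p, as did 53.0% of all genes tested and 64.0% of those that averaged 10 CPM or more, and they moved in both directions. Ddx39a, Ddx39b and Ddx19a fell and Ddx19b was called higher. DDX19A and DDX19B are near-identical enzymes that sit at the cytoplasmic side of the nuclear pore, where GLE1 and NUP214 control them and where they strip export proteins from the emerging mRNA. Their genes are neighbours on the minus strand of chromosome 8, Ddx19a at chr8:111700684-111724465 and Ddx19b at chr8:111729803-111758383. Ddx19b was at 58.1, 60.9, 51.4 and 54.5 CPM in control replicates 1 to 4 and at 77.1, 81.9, 80.0 and 79.4 CPM in 4A1 KO. Every 4A1 KO library was above every control library, and the 3 compared 4A1 KO libraries agreed to an SD of 1.29 CPM. The log2 fold change was 0.54 (SE 0.06, adjusted p = 1.15e-04), 1.45-fold. It fell short of the fold threshold at 0.49 without replicate 3 and at 0.40 to 0.41 in the TPM fits.

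Ddx19a moved the other way, from 103, 112, 113 and 108 CPM in control to 85.4, 92.1, 87.4 and 99.1 CPM in 4A1 KO, again without overlap. Its log2 fold change was −0.26 (SE 0.06, adjusted p = 0.00555), which passed the adjusted p and was not called. The ratio of Ddx19b to Ddx19a in CPM rose by 0.77 on the log2 scale, from −0.96 ± 0.14 to −0.19 ± 0.09 (SD, n = 4), with p = 0.0286 in the exact permutation test (two-sided), the smallest possible, and 0.143 after adjustment over the 5 pairs of related helicases compared. The sum of the pair was 167 ± 5.31 CPM in control and 173 ± 5.55 CPM in 4A1 KO over replicates 2 to 4, 3.93% higher. It did not pass the exact permutation test of 4 against 4 libraries, which includes replicate 1 (p = 0.257). The sum was higher in 4A1 KO in 4 of 4 same-numbered pairs. In TPM, Ddx19a was the more abundant at 101 ± 1.27 against 20.1 ± 1.19 for Ddx19b in control, and the ratio rose by 0.64 on the log2 scale (exact permutation p = 0.0286).

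Reads can be split between the paralogs. Of the 2978 windows of 50 bases in the Ddx19a transcript, 831 (27.9%) occur unchanged in the Ddx19b transcript, where they make up 12.7% of 6563. Reads were sequenced in pairs of 50 bases each and mapped as pairs. A read pair can fit both genes only where both of its reads lie in such stretches, and the share of such read pairs was not computed. How they were counted is not given in the sources used here, so the separate values of Ddx19a and Ddx19b are uncertain. A division of such read pairs between the genes would leave their sum unchanged, whereas discarding them or counting them for both genes would not. The other 4 helicase pairs compared, and Eif4a1 with Eif4a2, shared 0 windows of this length.

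**Figure D3:**
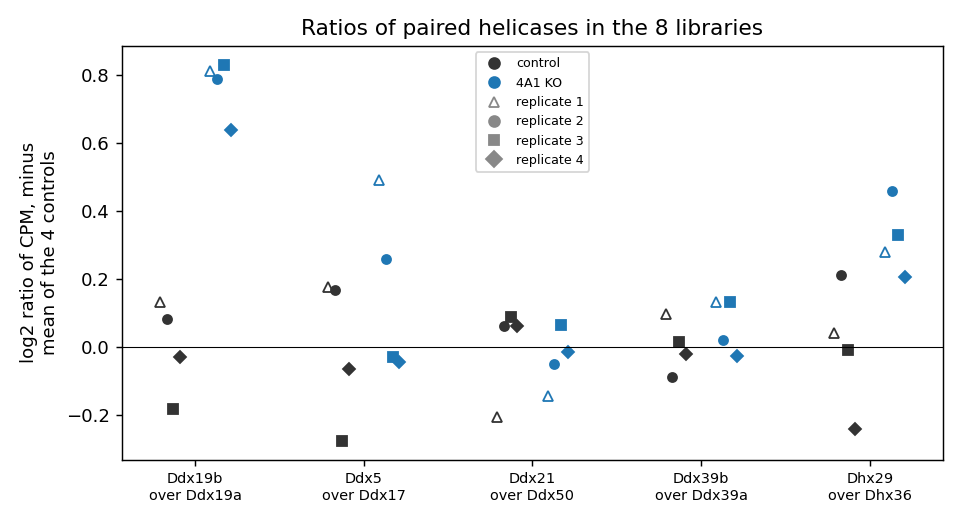
Log2 ratio of CPM between the members of 5 helicase pairs in each of the 8 libraries, shown as the difference from the mean of the 4 control libraries (control dark, 4A1 KO blue; symbols mark the replicate). The Ddx19b to Ddx19a ratio of the 4A1 KO libraries is higher by 0.77 on average and clear of the controls, whereas the other 4 pairs differ by −0.04 to 0.32.

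DDX39A and DDX39B (UAP56) load the export complex TREX on spliced mRNA. Ddx39a fell from 427 ± 6.58 to 360 ± 12.6 CPM, a log2 fold change of −0.25 (SE 0.05, adjusted p = 0.00200). Its control libraries lay at 423 to 435 CPM and its 4A1 KO libraries at 349 to 379, without overlap. Ddx39b fell from 534 ± 26.0 to 473 ± 14.3 CPM (−0.17, adjusted p = 0.00794), with overlapping libraries once replicate 1 was included. Their ratio differed by 0.06 on the log2 scale between genotypes (exact permutation p = 0.314). Alyref, the adaptor that these helicases deposit on mRNA, was called lower, from 148 ± 5.75 to 102 ± 9.07 CPM (−0.54, SE 0.05, adjusted p = 6.21e-05), and it fell short of the fold threshold at −0.49 without replicate 2 and at −0.50 to −0.49 in TPM. Named after their values were seen, the DDX19 regulators Nup214 at −0.35 and Gle1 at −0.18 fell as well, with adjusted p of 3.60e-04 and 0.0156, while the TREX subunits Thoc1 and Thoc2 were at 0.07 and −0.04 and did not pass.

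In translation and decay, 3 of 5 members passed the adjusted p and none was called, where 53.0% of all genes tested passed and 25.3% were called. Ddx6, which holds mRNA in a repressed state and activates decapping, fell most. Its levels were 371, 383, 417 and 456 CPM in control replicates 1 to 4 and 256, 299, 313 and 352 CPM in 4A1 KO. All 4A1 KO libraries were lower than all controls, and each pair differed by between −0.53 and −0.36 on the log2 scale. The fitted change was −0.38 (SE 0.04, adjusted p = 1.23e-04), a fall of 23.3%. Ddx3x fell by 9.96% (log2 fold change −0.15, SE 0.04, adjusted p = 0.0154), with overlapping libraries. Its control levels were 756 and 857 CPM in the males and 919 and 959 CPM in the females for this X-linked gene, with no overlap between the sexes. The male at 756 CPM is replicate 1, which the study removed, and so few libraries often separate by chance. A difference between the sexes was not tested in these levels. Each same-numbered pair shares its sex.

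Dhx29, which helps the small ribosomal subunit scan structured leaders, rose from 111 ± 5.90 to 129.7 ± 4.02 CPM (0.22, SE 0.05, adjusted p = 0.00466). Dhx36, which resolves G-quadruplexes, was at −0.13 (SE 0.05, adjusted p = 0.0832) and Dhx34, a factor of nonsense-mediated decay, at −0.11 (adjusted p = 0.290), and neither passed. The ratio of Dhx29 to Dhx36 was higher in 4A1 KO by 0.32 on the log2 scale and did not pass the exact permutation test (p = 0.0571, 0.143 over the 5 pairs), though it was higher in 4A1 KO in 4 of 4 same-numbered pairs. The related Dhx57 was at −0.12 (adjusted p = 0.269), with −0.02 without replicate 2 and −0.23 (adjusted p = 0.0382) without replicate 4.

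The partners of DDX6 in repression and decapping changed in both directions. Edc3, an enhancer of decapping, was called lower, with 31.0, 37.3, 44.0 and 42.5 CPM in control and 23.3, 23.7, 26.5 and 28.7 CPM in 4A1 KO (−0.65, SE 0.07, adjusted p = 8.00e-05). Among those named after their values were seen, Lsm14a and Lsm14b rose by 0.42 and 0.49, the 4E-T gene Eif4enif1 by 0.37 and the decapping scaffold Patl1 by 0.29, each past the adjusted p and none called. Cnot1, the scaffold of the deadenylase complex, was at 0.05 and did not pass.

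**Figure D4:**
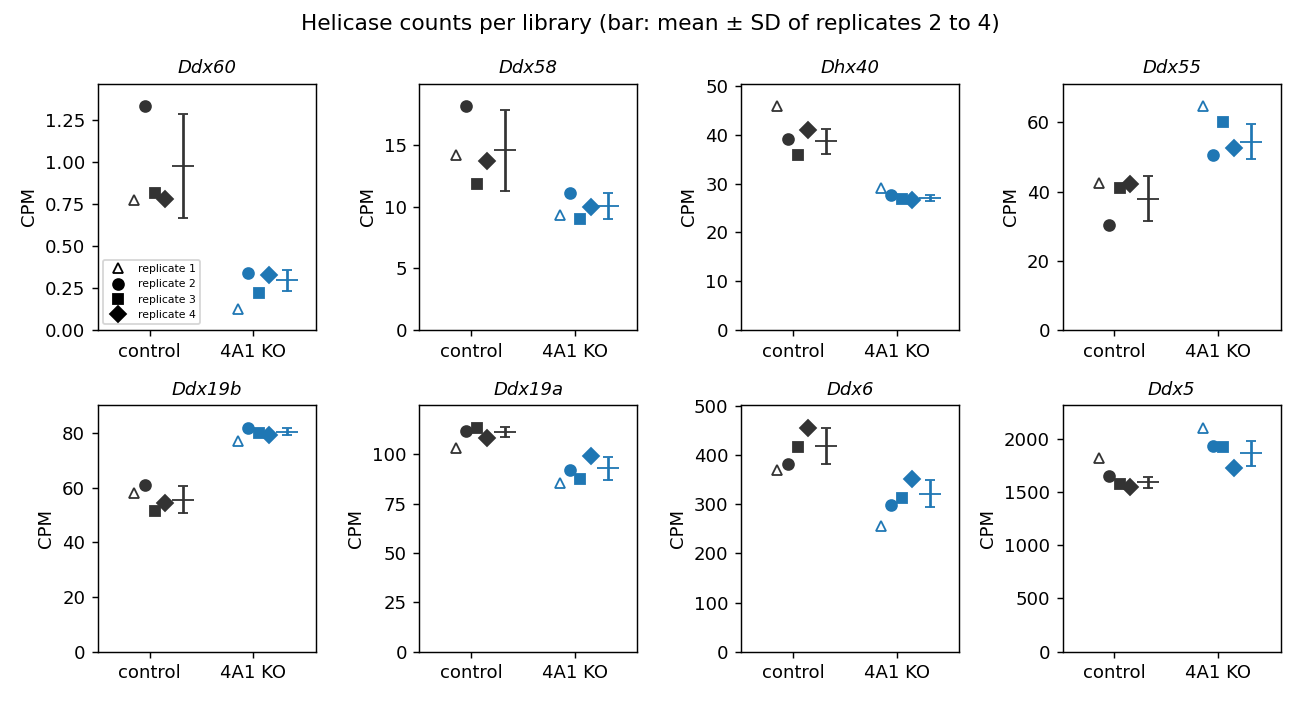
CPM of the 5 called helicases and of Ddx19a, Ddx6 and Ddx5 in each library of control and 4A1 KO B cells (open triangles replicate 1, which is not in the fit; filled symbols replicates 2 to 4), with the mean ± SD of replicates 2 to 4 beside them. The genotypes do not overlap in any panel but that of Ddx5, where control replicate 1 lies above 4A1 KO replicate 4.

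The helicases of ribosome assembly rose and fell within the same subunit. Of 16 tested members in the small subunit, large subunit and nucleolar lists, 12 passed the adjusted p, 8 higher and 4 lower, 1 was called, and their median log2 fold change was 0.12. Of all genes tested 53.0% passed and 25.3% were called, and of those that averaged 10 CPM or more 64.0% passed. The called one was Ddx55, a factor of large subunit maturation. It stood at 42.5, 30.4, 41.0 and 42.3 CPM in control replicates 1 to 4 and at 64.7, 50.5, 60.1 and 52.6 CPM in 4A1 KO. Control replicate 2 was the lowest library, and the genotypes did not overlap. The log2 fold change was 0.53 (SE 0.08, adjusted p = 6.31e-04), and 0.43 without replicate 2.

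Ddx27, another large subunit factor, rose from 291 ± 7.33 to 370 ± 14.0 CPM (0.34, SE 0.05, adjusted p = 2.86e-04), the largest rise among members above 100 TPM. Ddx54 rose by 0.22. In the same list Ddx56 fell from 183 ± 13.4 to 141 ± 11.8 CPM (−0.38, SE 0.05, adjusted p = 2.90e-04), a fall of 23.1%, and Ddx24 fell by 0.34. Ddx18, Ddx31 and Ddx51 did not pass, at 0.09, −0.05 and −0.05. Ddx18 passed at 0.11 (adjusted p = 0.0416) in all 8 libraries, and Ddx31 ran from −0.13 without replicate 2 to 0.06 without replicate 3. The 4A1 KO libraries of Ddx27 all lay above, and those of Ddx56 all below, every control library. In the small subunit list Ddx10, Ddx49 and Dhx33 rose by 0.25, 0.21 and 0.16, Ddx52 and Dhx37 fell by 0.35 and 0.19, and Ddx47 was at −0.08 and did not pass. Ddx52 had the smallest adjusted p of this list (5.14e-04), with 116 to 127 CPM in control and 95.1 to 98.9 CPM in the 4A1 KO libraries.

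The nucleolar RNA helicases Ddx21 and Ddx50, neighbouring paralogs on chromosome 10 that act on ribosomal RNA synthesis and processing, rose together. Ddx21 was at 1345, 1382, 1437 and 1429 CPM in control and 1624, 1665, 1774 and 1604 CPM in 4A1 KO, and Ddx50 at 91.1, 77.7, 79.4 and 80.4 CPM in control and 105.4, 101, 99.6 and 95.2 CPM in 4A1 KO. Both were higher in every 4A1 KO library than in any control library. The log2 fold changes were 0.25 (SE 0.05, adjusted p = 0.00171) and 0.32 (SE 0.05, adjusted p = 0.00106), and the ratio of the pair differed by −0.04 (exact permutation p = 0.629). Among cofactors named after their values were seen, the nucleolar proteins Noc2l and Nol10 rose by 0.43 and 0.42, whereas Utp14a, the activator of DHX37, was at −0.07 and did not pass.

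The spliceosomal helicases showed 5 rises and 2 falls among 9 members, with no call and a median of 0.13. Of all genes tested 26.3% rose, 26.7% fell and 25.3% were called. Ddx42 and Dhx8, which releases the spliced mRNA, rose by 0.28 and 0.26, Ddx23 of the U5 particle by 0.17, and Dhx38 and Dhx15, which takes the spliceosome apart, by 0.13 each. Dhx16, which remodels the spliceosome before the first catalytic step, fell from 166 ± 1.31 to 132 ± 4.00 CPM (−0.33, SE 0.05, adjusted p = 4.20e-04), and its libraries of the 2 genotypes lay far apart at 159 to 167 and 127 to 135 CPM. Ddx46 fell by 0.14. Ddx41 and Dhx35 were at 0.01 and −0.09 and did not pass. Snrnp200, the helicase that unwinds U4 from U6 and is not named as a Ddx or Dhx gene, rose by 0.23 and Aqr by 0.12, both named after their values were seen.

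Among the regulators of transcription and snRNP assembly, Ddx5 rose from 1591 ± 51.8 to 1861 ± 115 CPM (0.22, SE 0.04, adjusted p = 0.00266). Its pairs differed by 0.16 to 0.29, though the genotypes overlapped over all 8 libraries. Its paralog Ddx17 was at 0.10 (SE 0.05, adjusted p = 0.0814) and did not pass, and their ratio differed by 0.17 between genotypes (exact permutation p = 0.314). The ratio was higher in 4A1 KO in 4 of 4 same-numbered pairs in CPM and in 3 of 4 in TPM. Dhx9, an RNA helicase of transcription and of double-stranded RNA, fell from 766 ± 11.4 to 641.5 ± 32.1 CPM (−0.26, SE 0.04, adjusted p = 0.00118), and Ddx20 (gemin 3), of the complex that builds snRNPs, fell by 0.23. The complex partner Smn1 was at −0.04 and did not pass.

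Of the 2 mitochondrial members, Ddx28, which assembles the large mitochondrial ribosomal subunit, fell by 0.32 (SE 0.09, adjusted p = 0.0168; −0.21 and 0.163 without replicate 3) and Dhx30 rose by 0.14 (adjusted p = 0.0269). Ddx11, a DNA helicase of sister chromatid cohesion, fell from 31.7 ± 4.86 to 26.2 ± 4.08 CPM (−0.28, SE 0.07, adjusted p = 0.00767), and Ddx1, of the tRNA ligase complex, was at −0.03 and did not pass. Dhx40, for which no role is given here, was called lower, with 45.9, 39.2, 35.8 and 41.0 CPM in control and 29.2, 27.7, 26.9 and 26.6 CPM in 4A1 KO. The 4A1 KO libraries were both lower and closer together than the controls. The log2 fold change was −0.51 (SE 0.07, adjusted p = 3.49e-04), a fall of 29.9%. It fell short of the fold threshold at −0.46 without replicate 4 and at −0.49 with upper quartile scaling and with DESeq2's normal shrinkage. Dhx32, Dhx57 and Ddx59 did not pass, at 0.01, −0.12 and 0.24. Ddx59 was at 0.13 (adjusted p = 0.480) without replicate 3 and passed at 0.23 (adjusted p = 0.0442) in all 8 libraries, and Dhx32 was at −0.01 without replicate 4. Ddx25, a germline gene at 0.474 to 1.22 CPM in control and 0.908 to 1.73 CPM in 4A1 KO, had the largest estimate that did not pass (0.47, SE 0.22, adjusted p = 0.108), and it passed at 0.70 (adjusted p = 0.0252) in all 8 libraries. It was 0.28 (adjusted p = 0.477) without replicate 3 and 0.26 (adjusted p = 0.433) with DESeq2's normal shrinkage.

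The EIF4A paralogs belong to the DEAD-box family under other names. Eif4a2, the closest relative of Eif4a1, was called higher, from 487 ± 46.3 to 759 ± 102 CPM (0.64, SE 0.06, adjusted p = 3.48e-05), above the rise of any Ddx or Dhx gene in the main fit. In all 8 libraries Eif4a2 was at 0.59, below Ddx25 at 0.70. Eif4a3, the anchor of the exon junction complex, was at −0.07 (SE 0.04, adjusted p = 0.198). In TPM, Eif4a1 fell from 1070.2 ± 119 to 790 ± 78.1 and Eif4a2 rose from 483 ± 63.3 to 745 ± 109, so that in 4A1 KO cells the means lay within 1 SD of each other. The Eif4a1 TPM is a value for the whole gene and does not set apart RNA that lacks the floxed exons. Of 20 RNA helicases without a Ddx or Dhx name, 19 were tested, 10 passed the adjusted p (53.0% of all genes tested did), 8 higher and 2 lower, Eif4a2 was the only one called, and the median was −0.02. Of 33 cofactors of Ddx and Dhx helicases, 18 passed, 12 higher and 6 lower, and 2, Edc3 and Alyref, were called lower, with a median of 0.05. Of all genes tested 25.3% were called.

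In a fit of all 8 libraries with interaction terms over 14211 genes, no member passed adjustment for a difference of the genotype effect by sex or by batch. At an unadjusted p under 0.05, 1 member (Ddx31) differed by sex and 0 by batch, where 2.79% and 3.79% of all genes did. The test has 1 library in each cell of genotype, sex and batch, so that it has little power and cannot show that the effects were alike. In the deposited TPM, the sign of the change was the same as in the counts for 47 of the 48 members tested, including each of those that passed in the counts. The exception was Ddx51, and Ddx60 was too low to be tested in TPM. On that scale 24 of 48 members passed limma's adjusted p, where 47.2% of all genes did.

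The promoters of the members were searched for 4 short motifs on both strands, in the RefSeq promoter table of build GRCm38.p6, which holds 250 bases before and 50 after the start of each gene and matched 46 of the 53 members. CCGGAAG, the core of ETS sites, was found in 19 (41.3%), against 9.93% of all 27025 genes and 21.5% of the 9463 tested genes matched there. GGGCGG, of SP factors, was in 33 (71.7%), against 38.2% and 69.2%, CCAAT in 23 (50.0%), against 41.1% and 43.5%, and the E-box CACGTG in 7 (15.2%), against 8.09% and 12.2%. These are matches of letters in a fixed window, and no binding was measured.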

How the data were processed

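RNA of CD40LB and IL4 activated splenic B cells was measured in 8 libraries, 4 per genotype, grouped by their labels. The authors trimmed reads with Trim Galore 0.6.6, mapped them to GRCm39 with HISAT2 2.1.0 and deposited raw counts per gene from Seqmonk over merged isoforms with opposing strand-specific paired reads. The deposited TPM were calculated by the authors with StringTie 2.1.1. How reads that fit several genes were counted is not given in the sources used here.

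Counts were filtered with filterByExpr, scaled with TMM and fitted on all genes in edgeR 4.0.16 (R 4.3.3) with a quasi-likelihood test, batch, sex and genotype, two-sided, with Benjamini-Hochberg adjustment. In the 6 libraries batch and sex together equal the replicate number as a block. Same-numbered libraries share sex and batch by their labels, and their deviations from the genotype means correlated at r = 0.305 to 0.452, against at most −0.013 for other pairs. CPM are counts on TMM-scaled library sizes, scaled to a common total. TPM were tested with limma 3.58.1 on log2(TPM + 1) with a mean of at least 1 TPM. Single values over 8 libraries were compared by exact permutation. Counts limit the precision of members under about 1 CPM, such as Ddx60, and the standard deviations given are between mice. The code was tested on simulated data.

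Members, role lists and tests were chosen with earlier results of these data known. Genes named are the called members, the 5 most abundant, the member of smallest adjusted p in each role, the close pairs, the EIF4A paralogs, untested members and called genes of the other lists; further genes were named after their values were seen, including all remaining members by their change. Motif II was searched in GENCODE M39 coding sequences as codons for Asp-Glu-any-Asp or His followed 20 to 50 codons later by Ser or Thr, Ala, Thr. Overlapping genes were counted in GRCm39, where 10 members overlap a gene on the same strand and 28 one on the opposite strand. The alternatives were other scalings, DESeq2 1.42.0, other filters and pseudocounts, no block, all 8 libraries, glmTreat and leaving out each replicate. The background among genes of at least 10 CPM and the ratios and sum of close pairs were chosen after seeing the data.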

Additional observations from a re-analysis of the deposited data

Results flagged for a closer look

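In 4 of 100 groups of 4 libraries (50 tested helicases in each genotype), the highest or lowest library stood apart from the other 3 by Dixon's criterion at the 95% level, in which the distance to its neighbour is taken as a ratio to the spread of all 4. Chance alone would mark about 5 of 100. In Ddx60, control replicate 2 was at 1.34 CPM and the other controls at 0.774 to 0.818 (ratio 0.922). In Ddx55, control replicate 2 was at 30.4 CPM and the other controls at 41.0 to 42.5 (ratio 0.878). In Dhx15, 4A1 KO replicate 3 was at 622 CPM and the others at 580 to 584 (ratio 0.911). In Dhx34, 4A1 KO replicate 3 was at 22.3 CPM and the others at 19.0 to 19.4 (ratio 0.873). Both called genes among them, Ddx60 and Ddx55, kept their direction without replicate 2, at −1.53 and 0.43.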

How the results depend on the processing

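Of the 5 called members, 4 had a change close to 0.5. The number called was 3 with upper quartile scaling and with DESeq2's normal shrinkage, 1 with glmTreat against 0.5, 1 with limma on log2(TPM + 1), 2 with a pseudocount of 0.1 and 0 without the TPM filter, where 24 members still passed the adjusted p. It ranged from 3 to 5 when 1 replicate was left out, with 3 without replicate 2. The median log2 fold change of −0.0479 was −0.0251 with upper quartile scaling, which moves the median of all genes to 0.03, −0.0755 in all 8 libraries, and −0.0539 to −0.0253 when 1 replicate was left out. Without the replicate block 5 members were called and 22 rather than 35 passed the adjusted p. Of 430 comparisons of an alternative with the 29 genes chosen by the naming rule, 401 gave the same call by both thresholds together, 28 kept the direction and were no longer called, 1 was newly called (Ddx25, 0.70 in all 8 libraries), and none reversed. All 28 concern genes called in the main fit, and most of the 29 genes were not called there. The 401 are therefore mostly comparisons of genes with no call to lose, and they do not measure how firm the calls are. Among the members outside these 29 genes the sign turned for some that had not passed the adjusted p, Ddx31 (0.06 without replicate 3), Ddx51 (0.03 to 0.04 in the TPM fits) and Dhx32 (−0.01 without replicate 4). By the adjusted p alone, 12 of the 35 members lost it and 2 others gained it in at least 1 of the fits without a replicate, and with DESeq2 4 lost it. With upper quartile scaling and with shrinkage, Ddx58 missed the fold threshold at −0.50 and −0.48, and Dhx40 at −0.49 in both. The causes were not tested.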
